A study of Mus musculus with 2 samples.

Results

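The genes described are 8 members of the voltage-gated sodium channel complex, measured in Purkinje cells, whose axons carry the whole output of the cerebellar cortex. They comprised 2 genes for pore-forming subunits (Scn1a and Scn8a), 3 genes for beta subunits (Scn2b, Scn3b and Scn4b) and 3 genes for intracellular fibroblast growth factors (Fgf12, Fgf13 and Fgf14). They were found by matching gene identifiers, without their versions, to symbols, and all 8 were present among the 43346 rows with Ensembl identifiers. The samples were 2 pools of 30 cells each, isolated by laser capture. The source animals were adult males, 14 months old, of the strain B6CASTF1/J, a first-generation cross of C57BL/6 and CAST mice. Both pools formed 1 group, named here by their biological replicate numbers as pool 1 and pool 2, with no treatment or mutation and no other cell type to compare. The labels give both pools the same donor identifier and do not say whether they came from 1 animal, so a standard deviation (SD) between them may be technical.

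A voltage-gated sodium channel opens when the membrane depolarizes and starts the action potential. The pore-forming (alpha) subunit carries the pore and the inactivation gate, the beta subunits are single-pass membrane proteins that change gating and cell adhesion, and the intracellular FGFs, also called FGF homologous factors, are not secreted but bind the cytoplasmic end of the pore-forming subunit. Purkinje cells fire spontaneously at high rates and are known for a resurgent sodium current, which flows when the membrane repolarizes after a spike. Work in rodents has tied that current to the Scn8a channel, to a blocking peptide in the tail of the Scn4b protein and to FGF14.

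The coding sequences to which the FGF transcript results and the account of Scn4b refer are shown first. All were read from GENCODE M21 transcripts on mouse build GRCm38 and are reference sequence, so the allele of the CAST parent may differ. The FGF genes start their coding sequence in alternative first exons, and the start encoded there sets the N-terminus of the protein. The coding part of each is shown with the start codon in capitals. They lie on the minus strand, at 28444993 to 28445191 of chromosome 16 for Fgf12-201, at 59166013 to 59166040 of chromosome X for Fgf13-202, and on chromosome 14 at 124192329 to 124192521 for Fgf14-201 and at 124676510 to 124676717 for Fgf14-202.

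Fgf12-201: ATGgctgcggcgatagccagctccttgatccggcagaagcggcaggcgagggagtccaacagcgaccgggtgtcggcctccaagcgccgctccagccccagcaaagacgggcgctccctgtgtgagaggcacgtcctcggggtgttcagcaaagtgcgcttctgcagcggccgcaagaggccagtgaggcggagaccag

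Fgf14-201: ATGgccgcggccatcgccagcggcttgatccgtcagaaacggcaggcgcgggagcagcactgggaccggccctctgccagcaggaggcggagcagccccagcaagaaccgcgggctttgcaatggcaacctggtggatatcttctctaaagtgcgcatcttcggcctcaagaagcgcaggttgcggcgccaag

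Fgf14-202: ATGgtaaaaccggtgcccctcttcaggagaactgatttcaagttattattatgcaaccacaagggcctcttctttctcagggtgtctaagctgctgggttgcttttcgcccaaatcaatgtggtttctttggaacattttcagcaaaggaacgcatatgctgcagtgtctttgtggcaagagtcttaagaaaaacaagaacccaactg

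Fgf13-202: ATGgctttgttaaggaagtcatattcag

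The first coding exons of Fgf12-201 and Fgf14-201 were alike, with 131 of 193 aligned bases identical (67.9%). In a global alignment of the Fgf14-201 and Fgf14-202 exons, 98 of 166 aligned bases were identical (59.0%). The last sequence is the end of the Scn4b coding sequence on chromosome 9 (plus strand). Its capitals, at 45149352 to 45149393 and codons 184 to 197, encode the 14-residue tail peptide that is known to block open sodium channels.

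Scn4b-201: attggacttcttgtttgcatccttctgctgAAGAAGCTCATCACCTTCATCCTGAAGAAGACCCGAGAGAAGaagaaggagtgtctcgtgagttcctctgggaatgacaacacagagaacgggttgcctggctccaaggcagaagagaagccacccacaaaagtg

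The pools held 31503819 and 28709397 expected counts, the authors' estimates of the reads from each gene. Levels are given as TPM, a share of all transcripts that corrects for length, and a gene was called detected at a TPM of at least 1. Of 17 Purkinje cell markers 16 were detected in both pools, and their summed TPM was 96826 in pool 1 and 95767 in pool 2. Of 13 Bergmann glia and astrocyte markers 12 were detected in both pools, with sums of 2832 and 4848, and all 12 had a higher TPM in pool 2. Granule cell markers were detected in both pools for 7 of 11, with sums of 44.8 and 53.5 TPM, led by Zic1 and Neurod1. Sums were 25.03 and 21.8 TPM for inhibitory interneurons (2 of 8 detected, Npas1 at 0 counts) and 38.1 and 55.0 for oligodendrocytes (3 of 10). They were 1.67 and 2.00 for oligodendrocyte precursors (1 of 5, Gpr17 at 0 counts), 7.92 and 5.65 for microglia (2 of 10) and 21.6 and 14.9 for endothelial and mural cells (3 of 10). Red blood cell genes had 2453 TPM in pool 1 and 16.3 in pool 2. How much of each member's level came from cells other than Purkinje cells was not tested, and in a pool of cells a smaller share of a cell type and less RNA per cell cannot be told apart.

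Of the 8 members 6 were detected in both pools, Fgf13 in pool 2 alone and Scn3b in neither. The call for Fgf13 depended on the estimate, as given below. Among all protein-coding genes 30.3% were detected in both pools, but the members were chosen with their levels known, so nothing is read from that difference. The mean TPM ran from 15.6 for Scn2b to 0.110 for Scn3b, against 3.58 for the median of the 8011 protein-coding genes detected in either pool. The order by mean TPM was Scn2b, Scn1a, Fgf12, Scn8a, Scn4b, Fgf13, Fgf14 and Scn3b. The ranges over pools overlapped between Scn2b and Scn1a, between Scn1a and Fgf12, between Scn4b and Fgf13 and between Fgf13 and Fgf14, so these neighbours were not ordered. The ranges did not overlap between Fgf12 and Scn8a, between Scn8a and Scn4b or between Fgf14 and Scn3b. The order of Fgf12 and Scn8a rests on deposited transcript lengths. These were 3065 bases for Fgf12-201 and 10176 for Scn8a-203, which GENCODE M21 gives as 4137 and 7030.

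**Figure D1:**
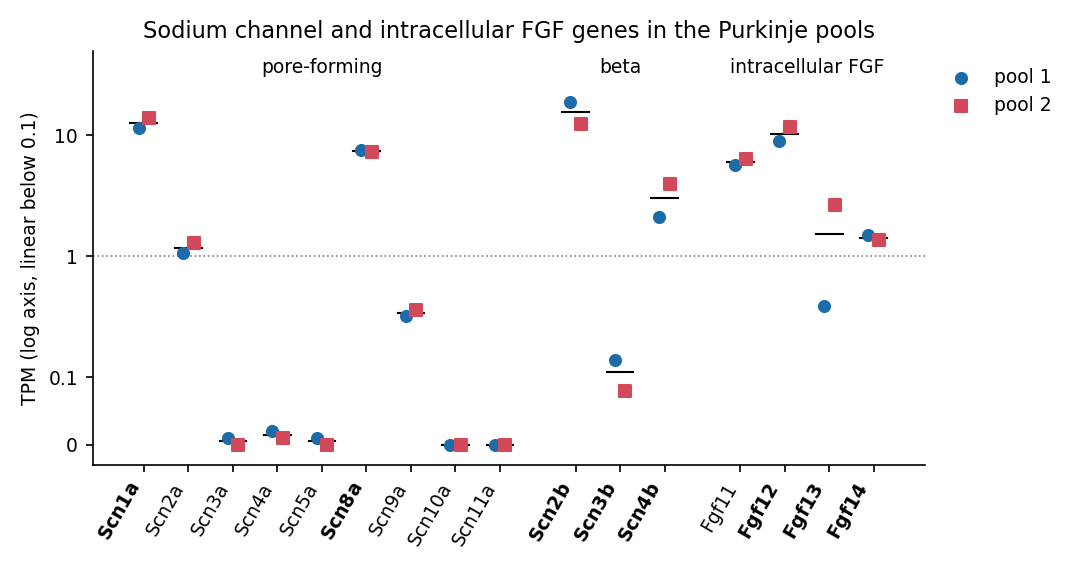
TPM of the genes for pore-forming subunits, the 3 beta members and the intracellular FGFs in pool 1 (circles) and pool 2 (squares), on a log axis that is linear below 0.1, with the mean as a bar, a TPM of 1 dotted and the 8 members in bold. Scn1a and Scn8a stand above the other pore-forming genes in both pools, and the circle and square of Fgf13, at 0.39 and 2.68, lie on either side of the dotted line.

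Scn1a and Scn8a made up most of the pore-forming message. Scn1a (ENSMUSG00000064329.9, chromosome 2, 66270778 to 66440840) stood at 11.4 TPM in pool 1 and at 14.0 in pool 2, from 3770 and 3707 expected counts, a mean of 12.7 ± 1.82 (SD, n = 2). Of the detected protein-coding genes 23.8% had a higher mean TPM. Scn8a (ENSMUSG00000023033.10, chromosome 15, 100869858 to 101045938) had 7.55 and 7.28 from 3099 and 2567 counts, a mean of 7.42 ± 0.191 (SD, n = 2). Relative to the mean its TPM values lay closest together of the members, which did not hold for the scaled count ratios given below. Of the detected protein-coding genes 33.1% lay above Scn8a.

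Scn1a exceeded Scn8a per transcript in both pools, by a TPM ratio of 1.51 in pool 1 and 1.92 in pool 2 (mean 1.72 ± 0.289, SD, n = 2). In expected counts, which are not corrected for length, the ratios were 1.22 and 1.44. The TPM ratios rest on a deposited length of 10176 bases for Scn8a-203, which GENCODE M21 gives as 7030. The pool 2 ratio also includes 0.93 TPM of Scn1a from 18.3 counts on Scn1a-206, a transcript of 660 bases named after its values were seen. The annotated coding sequences of Scn1a-201 and Scn8a-203 were identical at 74.7% of aligned bases. Scn1a was the only member whose expected count was not a whole number in both pools (3770.37 and 3707.29). The posterior SD of its count in the deposited tables, which measures how uncertain the assignment of reads to the gene was, came to 1.40 and 0.83 reads, small beside the level.

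Among all 9 pore-forming genes Scn1a held 58.5% ± 3.55 of the summed TPM (56.0% and 61.1%) and Scn8a 34.4% ± 3.72 (37.01% and 31.8%). Together they held 92.9% ± 0.166 (SD, n = 2). Scn2a, the other main pore-forming gene of the forebrain, was detected at 1.06 and 1.28 TPM, which was 5.39% ± 0.273 of the class. The other 6 genes stayed under 1 TPM in either pool. Of these, named after their values were seen, Scn9a had 0.32 and 0.36, and Scn10a and Scn11a, which are known from sensory neurons of the body, had 0 counts in both. Scn1a, Scn2a, Scn3a and Scn9a are neighbours on chromosome 2, and Scn3a, known from embryonic brain, had 0.01 and 0 TPM.

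The beta subunit members spanned the widest range. Scn2b (ENSMUSG00000070304.7, chromosome 9, 45117782 to 45130070), whose protein is linked to the pore-forming subunit by a disulfide bond, reached 18.8 TPM in pool 1 and 12.5 in pool 2, from 2953 and 1690 counts. Its mean of 15.6 ± 4.46 (SD, n = 2) was the highest of the members, but Scn1a lay above it in pool 2. Scn4b (ENSMUSG00000046480.5, chromosome 9, 45138395 to 45154152), the gene of the blocking peptide shown above, had 2.11 and 3.96 from 415 and 671 counts, a mean of 3.04 ± 1.31. It lies next to Scn2b on the same strand. Scn2b was higher in pool 1 and Scn4b in pool 2. The ratio of Scn2b to Scn4b was 8.91 in pool 1 and 3.15 in pool 2.

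Scn3b (ENSMUSG00000049281.11, chromosome 9, 40269217 to 40291618), a beta subunit that binds without a disulfide bond, was near zero. It had 0.14 TPM from 11 counts in pool 1 (exact Poisson 95% interval 5.49 to 19.7 counts) and 0.08 from 7 counts in pool 2 (2.81 to 14.4). The intervals cover counting error only, as the labels name no molecular identifiers for the reads, and those of the pools overlapped. Of the summed TPM of these 3 genes Scn2b held 82.4% ± 9.73, Scn4b 17.0% ± 9.86 and Scn3b 0.575% ± 0.128 (SD, n = 2).

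The summed message of the 3 beta members was close to that of the pore-forming genes, and which was higher differed between pools. The beta members summed to 21.04 TPM in pool 1 and 16.5 in pool 2, against 20.4 and 22.9 for the 9 pore-forming genes, a ratio of 1.03 and 0.721 (mean 0.876 ± 0.220, SD, n = 2). Over Scn1a and Scn8a alone, which summed to 19.0 and 21.3 TPM, it was 1.11 and 0.776. These are ratios of message per length, rest on the deposited length of Scn8a-203 and say nothing of protein.

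**Figure D2:**
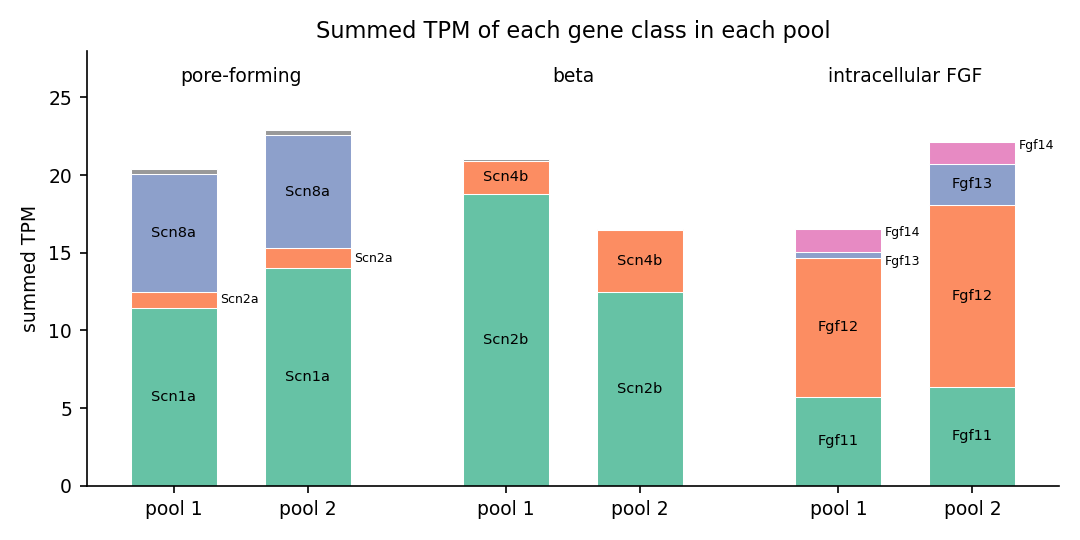
Summed TPM of the 9 pore-forming genes, the 3 beta members and the 4 intracellular FGF genes in each pool, stacked by gene, with genes under a TPM of 1 in both pools in grey. The beta stacks reach 21.04 and 16.5, the pore-forming stacks 20.4 and 22.9 and the FGF stacks 16.5 and 22.1.

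Fgf12 was the highest of the intracellular FGF genes and Fgf14 among the lowest. Fgf12 (ENSMUSG00000022523.9, chromosome 16, 28160098 to 28753068) reached 8.91 TPM in pool 1 and 11.7 in pool 2, from 1073 and 1212 counts, a mean of 10.3 ± 1.96 (SD, n = 2). Fgf14 (ENSMUSG00000025551.9, chromosome 14, 123977907 to 124677127), whose loss or mutation causes a hereditary ataxia in people and ataxia in mice, had 1.49 and 1.37 from 212 and 159 counts, a mean of 1.43 ± 0.0849. Fgf12 exceeded it 5.98-fold in pool 1 and 8.53-fold in pool 2. These ratios rest on a deposited length of 3065 bases for Fgf12-201, which GENCODE M21 gives as 4137. The coding sequences of Fgf12-201 and Fgf14-201 were identical at 72.8% of aligned bases.

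Fgf13 (ENSMUSG00000031137.13, chromosome X, 59062145 to 59568071), which also binds microtubules, was the member whose pools lay farthest apart. It had 0.39 TPM from 27 counts in pool 1 and 2.68 TPM from 187 counts in pool 2. The exact Poisson 95% intervals on the counts were 17.8 to 39.3 and 161 to 216. By the posterior mean TPM, a second deposited estimate, Fgf13 had 1.13 in pool 1 and 3.5 in pool 2. By that estimate it was detected in both pools. Fgf11, the intracellular FGF outside the member list, had 5.73 and 6.38 TPM. It held 31.8% ± 4.12 of the summed TPM of the 4 genes, after 53.4% ± 0.783 for Fgf12, with 7.61% ± 2.00 for Fgf14 and 7.24% ± 6.90 for Fgf13.

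The intracellular FGF genes summed to 16.5 TPM in pool 1 and 22.1 in pool 2, against the 20.4 and 22.9 of the pore-forming genes. The ratio was 0.810 and 0.964 (mean 0.887 ± 0.109, SD, n = 2). Over the members alone it was 0.569 and 0.739. Secreted FGFs act on receptors of other cells. Of 18 such genes 2 were detected in both pools, against 30.3% of all protein-coding genes. Of the 18 genes 15 were detected in neither pool, and 10 of those 15 had 0 counts. The genes detected in both, named after their values were seen, were Fgf7 at 11.4 ± 2.71 TPM and Fgf9 at 3.55 ± 0.983. Fgf1, at 0.73 TPM in pool 1 and 1.11 in pool 2, was detected in pool 2 alone.

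The pools were set against each other as replicates of 1 group, by the log2 ratio of expected counts, pool 1 over pool 2, after TMM scaling, which assumes that most genes do not differ. With 1 library on each side no p-value is given. One of the 8 members, Fgf13, was past 2-fold, against 32.1% of the 14495 genes with at least 10 counts in total. Scaled by spike-in totals, 5 of the 8 were past 2-fold (Scn2b, Scn3b, Fgf14 and Scn8a higher in pool 1 and Fgf13 higher in pool 2), against 46.9% of the same genes. Among the 6427 genes of a mean TPM from 1 to 20, 18.1% were past 2-fold after TMM scaling. The median log2 ratio over the members after TMM scaling was 0.21, against 0.01 for all genes with at least 10 counts. After that scaling 5 members were higher in pool 1 and 3 in pool 2. The split was 4 and 4 when scaled by total counts and 7 and 1 when scaled by spike-ins. Under these 2 scalings the median of all genes was itself shifted, to -0.19 and 0.77.

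Fgf13 had a log2 ratio of -2.73, which is 6.65-fold more in pool 2, with a 95% counting interval of -3.37 to -2.15. Of the 12 detected Bergmann glia and astrocyte markers 11 were also higher in pool 2, with a median log2 count ratio of -0.67, but 5 were under spike-in scaling, with a median of 0.10, and their part in the Fgf13 difference was not tested. Scn2b had 0.86 (0.78 to 0.95), the largest difference towards pool 1. The Purkinje markers had a median of 0.40 over 17 genes. Scn4b had -0.63 (-0.81 to -0.46), which is 1.55-fold more in pool 2, but 0.14 under spike-in scaling, where the median of all genes was 0.77. The part of either marker list in these differences was not tested.

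The remaining members differed less between pools or were too low to tell. Fgf14 had 0.47, Scn8a 0.33 and Scn1a 0.08. Fgf12 had -0.12, with an interval of -0.237 to 0.003 that spanned 0, and its ratio turned to 0.65 under spike-in scaling. Scn3b, at 0.71, had an interval of -0.79 to 2.32 that spanned 0. For Scn1a the sign depended on the scale, with -0.11 when scaled by total counts and -0.27 on the log2(TPM + 1) scale, where the median of all detected genes was -0.24.

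**Figure D3:**
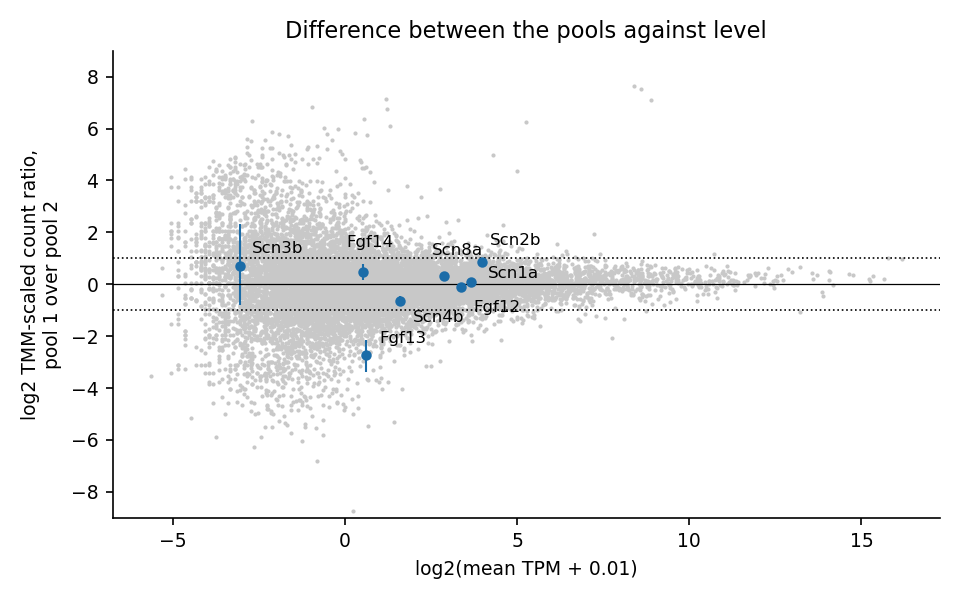
Log2 ratio of TMM-scaled expected counts, pool 1 over pool 2, against log2(mean TPM + 0.01), for genes with at least 10 counts in total and at least 1 in each pool (grey) and for the 8 members (blue, with 95% counting intervals). Dotted lines mark 2-fold. Only Fgf13, at -2.73, lies past them among the members, and the interval of Scn3b runs from -0.79 to 2.32.

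Transcript shares were read from the deposited transcript tables, which state how a gene's TPM divides over its transcripts, in percent. Fgf12 and Scn4b had a single transcript there. For Fgf12 it was Fgf12-201, of 243 codons. GENCODE M21 lists 6 transcripts of Fgf12, some with other first exons, such as Fgf12-205 with 181 codons. Reads of these forms could not be assigned to them in the tables used here, so the N-terminus of the Fgf12 protein is not settled by these values.

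Of the 4 members detected in both pools that had more than 1 transcript, all 4 (Scn1a, Scn8a, Scn2b and Fgf14) had the same leading transcript in both pools. Among the 5149 genes that met the same conditions 86.9% did. Scn8a was almost wholly Scn8a-203, with 96.7% in pool 1 and 99.3% in pool 2. It was followed by Scn8a-204 at 2.10% and 0.74%. The deposited values cover 5 transcripts of Scn8a and GENCODE M21 lists 20, so reads of forms outside the 5 could not be assigned to them. Scn2b was almost wholly Scn2b-201, with 98.3% and 97.8%, and Scn2b-202 held the rest. The coding sequences of both, of 215 codons, were identical at all 645 bases.

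Scn1a was shared between several full-length transcripts. Scn1a-201 held 52.6% in pool 1 and 57.7% in pool 2 (mean 55.1% ± 3.58, SD, n = 2), and Scn1a-203 held 32.6% and 34.7% (33.7% ± 1.49). The coding sequence of Scn1a-203 is 2009 codons long and that of Scn1a-201 is 1998. Scn1a-204, also of 1998 codons, held 14.6% in pool 1 and 0.07% in pool 2. Over Scn1a-201, Scn1a-203 and Scn1a-204 the form of 2009 codons thus held 32.7% and 37.6% of TPM (35.1% ± 3.44, SD, n = 2).

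The split between the forms of 1998 codons was less certain than the share of Scn1a-203. Scn1a-204 had 556 expected counts in pool 1 and 2.86 in pool 2, while the posterior mean counts in the deposited tables were 553 with an SD of 211 and 345 with an SD of 307. The difference between pools was therefore within the deposited uncertainty of read assignment. For Scn1a-203 the posterior mean counts were 1197 with an SD of 176 and 1504 with an SD of 225. These transcripts also differ outside the coding sequence, so the shares do not count reads of the coding difference alone.

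**Figure D4:**
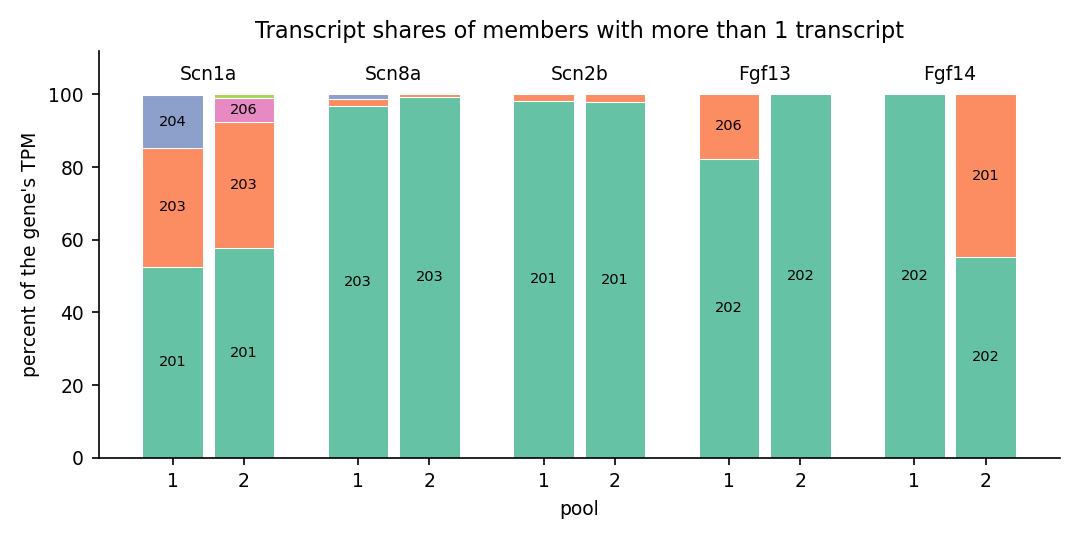
Transcript shares as percent of the TPM of a gene, in pool 1 and pool 2, for the members with at least 2 transcripts in the tables, without Scn3b, which had 11 and 7 counts. Numbers in the bars are transcript suffixes. Fgf14 is all 202 in pool 1 and 55.3% 202 with 44.8% 201 in pool 2.

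Fgf14 differed between pools in its forms. In pool 1 Fgf14-202 held 100% of the TPM, from 212 counts. In pool 2 it held 55.3% from 92.9 counts and Fgf14-201 held 44.8% from 66.1. Posterior mean counts for Fgf14-201 were 3.74 with an SD of 4.07 in pool 1 and 59.95 with an SD of 17.7 in pool 2. That difference between pools was larger than the deposited uncertainty of read assignment.

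The Fgf14 transcripts encode 247 codons (Fgf14-201) and 252 codons (Fgf14-202), known as forms 1a and 1b. They start 484225 bases apart and share 3 of 5 exons. Fgf14-202 also runs 384 bases further at its 3′ end. The shares thus join a difference at the start with one at the end, and which end carried the reads was not tested. An antisense gene, Gm28932, overlaps exons of Fgf14 by 220 bases and had 0 counts in both pools.

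Fgf13 reads were assigned to Fgf13-202, with 26 of 27 counts in pool 1 and all 187 in pool 2, which was 82.3% and 100% of the TPM. That transcript encodes 192 codons and starts with the 28 coding bases shown above. Fgf13-201, which encodes 245 codons and the longer N-terminus, had 0 expected counts in both pools. The posterior means spread the reads further in pool 1, with 13.5 counts for Fgf13-202 (SD 6.98), 7.96 for Fgf13-203, named after its values were seen (SD 6.31), and 4.19 for Fgf13-201 (SD 4.33). In pool 2 the posterior mean was 165 for Fgf13-202 (SD 18.2), 16.1 for Fgf13-203 (SD 16.7) and 5.44 for Fgf13-201 (SD 6.57). Fgf13-202 had the highest expected and posterior mean counts of these in both pools. By the percent of posterior mean TPM it held 15.75% in pool 1 and 67.3% in pool 2, and Fgf13-204, a non-coding transcript of 151 bases named after its values were seen, held 41.5% and 15.5% with posterior mean counts of 0 in both. The leading form in pool 1 thus depended on the estimate.

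**Figure D5:**
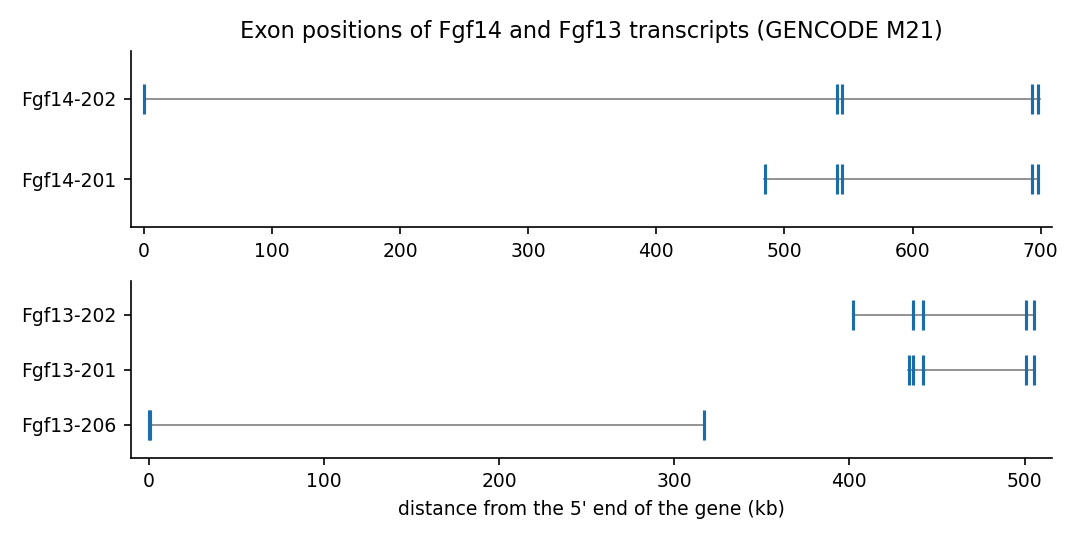
Exon positions (ticks, widths not drawn) along transcripts of Fgf14 and Fgf13, as distance in kb from the 5′ end of each gene in GENCODE M21. Fgf14-202 starts 484225 bases before Fgf14-201 and the transcripts share their inner exons, while the Fgf13 transcripts begin at 3 separate starts.

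Other genes of the sodium channel complex and its surroundings were measured for context. Of 29 genes for partners of the channel at the axon initial segment and in the cell, 19 were detected in both pools and 6 in neither. The 5 highest by mean were the calmodulin gene Calm2 (7428 ± 1115 TPM), the actin regulator Cfl1 (263 ± 22.0), the calmodulin gene Calm3 (96.9 ± 0.933), the casein kinase subunit Csnk2b (85.5 ± 2.00) and the arginine methyltransferase Prmt8 (37.3 ± 5.35), with Cntn1 level with Prmt8 within the spread (37.3 ± 2.86). Calmodulin binds the same cytoplasmic end of the pore-forming subunit as the FGFs. The anchors of the initial segment, named after their values were seen, were Ank3 at 7.30 ± 0.693 TPM and Sptbn4 at 0.295 ± 0.134. Of 5 genes for the sodium leak channel, its partners and a further relative of the sodium channels, 3 were detected in both pools. Nalcn, the leak channel, had 2.12 and 2.11 TPM, its partner Unc80 had 22.9 and 18.2, and Fam155a had 7.40 and 9.41. The other 2, named after their values were seen, were Unc79 at 0.34 and 0.22 TPM and Scn7a at 0.01 in both.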

How the data were processed

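RNA of 2 pools of 30 laser-captured Purkinje cells was amplified with a SMARTer Ultra Low kit, per the labels, and carried spike-in RNA. The deposited tables were made per library on mouse build mm10 (GRCm38) with GENCODE M4, per the text files deposited with the samples. The names of aligner and quantifier were not given in the sources used here. The deposited gene and transcript tables hold, per the file headers, expected counts, TPM, FPKM, transcript shares in percent, and posterior means and SDs of counts. Reads of the CAST allele could align less well to that reference, which was not tested.

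Symbols, coordinates and coding sequence were taken from GENCODE M21, also on GRCm38 (42462 of 43346 identifiers matched). M21 lengths equal those in the tables for Scn1a-201, Scn1a-203, Scn1a-204 and the Fgf13 and Fgf14 transcripts described. They differ for Fgf12-201, Scn4b-201, Scn1a-206, Scn8a-203, Scn8a-204 and Scn2b-202. Rows with numeric identifiers (0.000412% and 0.000194% of counts) and spike-ins were left out.

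The design has 1 group and no contrast, so no test was run. Means and SDs are over pools. Count ratios used rounded expected counts, edgeR 4.0.16 TMM scaling and genes with at least 10 counts in total, with exact 95% binomial intervals that cover counting error only. The ratio step was tested on simulated data, with changes set only in genes of more counts than Scn3b had. That checks the calculation and does not measure the spread between these pools. Counts differed by more than sampling, with a median chi-square per gene of 11.4 against 0.455, so the tables are not 1 library deposited again. Alternatives were DESeq2 1.42.0 size factors, total counts, spike-in totals, no filter, posterior means, FPKM, annotated length and other thresholds. The members, gene lists and alternatives were chosen with earlier results of these data known. Some genes and 1 sequence are not reported here, and the beta sums cover the 3 beta members. The text names all members, relatives of the sodium channel and intracellular FGF genes detected in either pool and the 5 highest partners. With 2 pools no likeness of pattern was computed.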

Additional observations from a re-analysis of the deposited data

How the results depend on the processing

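With the sums restricted to the members, the intracellular FGF over pore-forming ratio was 0.654 in place of 0.887 and the Scn1a share 63.0% in place of 58.5%, since Fgf11 and Scn2a then drop out, while the beta over pore-forming ratio was 0.942 in place of 0.876. These values moved by less than 1 SD with posterior mean TPM, FPKM, annotated length or a filter at a TPM of 1. Within a pool FPKM is proportional to TPM, so its ratios and shares could not differ beyond rounding. Counts over annotated length repeat nearly the same formula, so neither is an independent check. Either pool alone lies within 1 SD of a mean over 2 by construction, with ranges of 0.721 to 1.03, 0.810 to 0.964 and 56.0% to 61.1%. Members detected were 7 at a TPM of at least 0.1, 4 at 5 and 2 at 10, against 6 at 1. By posterior mean TPM of at least 1 they were 7. The share of all protein-coding genes was computed only at a TPM of 1, where it was 30.3%. Scaling by spike-in totals put 5 members past 2-fold between pools, against 1 (46.9% of all genes, against 32.1%), and shifted the median log2 ratio of all genes to 0.77; 7 members were then higher in pool 1, and Fgf13 was still lower, at -1.96. Under total counts the members split 4 to 4, where the median log2 ratio of all genes was -0.19. The posterior mean lowered the share of Fgf13-202 to a mean of 41.5% (15.75% in pool 1 and 67.3% in pool 2), against 91.2%. That estimate gives transcripts without assigned reads a value above 0. It also assigned fewer reads to Fgf13-202, with 13.5 counts in pool 1 against 26 expected counts. The part of each in the lower share was not tested. Of 92 alternative values for single genes or transcripts 23 moved by more than the SD or counting interval. The 92 include levels and shares from either pool alone, which could not move by construction, so 23 of 92 understates how often values moved. No paired analysis was possible because there is only 1 group. Depth limits Scn3b (11 and 7 counts) and Fgf13 in pool 1 (27 counts).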
